A study of Mus musculus with 9 samples.

Results

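Extracellular vesicles (EVs) are membrane particles that cells shed into their medium with RNA and protein inside. The RNA cargo described here is that of EVs released by PBS-treated mouse embryonic fibroblasts (MEFs), measured on 5 of the 9 arrays of the series. The members are the arrays that the labels assign to EVs of PBS-treated MEFs, and the other 4 arrays hold EVs of control MEFs, which serve below only for a count of detected genes. MEFs are connective tissue cells grown from mouse embryos. Per the study's methods they came from a commercial supplier, and the labels give no strain, embryonic age, sex or clone. PBS is phosphate-buffered saline, and the labels name no plasmid for this group and no other agent. In the study's method, cells on a porous insert are electroporated and their vesicles are then collected in serum-free medium, and whether the PBS-treated cells were electroporated is not stated in the labels. The 5 replicates lay on 2 array slides, replicates 1 to 3 on slide 1 and replicates 4 and 5 on slide 2, and the labels do not say that they came from separate cultures. The replicate spread, and each p-value that rests on it, may thus be technical.

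Fibroblasts make and remodel the extracellular matrix, and they answer injury and infection signals with chemokines and acute-phase proteins. Vesicles arise by outward budding of the plasma membrane or inside endosomes, where ESCRT proteins, tetraspanins and syntenin shape small vesicles that are set free when the endosome fuses with the cell surface. They enclose cytoplasm and so carry fragments of, or whole, messenger, ribosomal and small RNAs. In bulk vesicle RNA, fewer vesicles with a transcript and less transcript per vesicle cannot be told apart.

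Each array carried 55681 distinct 60-base noncontrol probes. A gene's level is here the mean over 5 arrays of log2 probe signal minus the 75th percentile (log2) of the probes detected on all 5, taken from the gene's brightest detected probe. A level of 0 thus lies at that percentile, and 1 unit is a 2-fold difference in brightness. Probes bind with unequal strength, so a rank by level orders probes by brightness and does not order RNAs by their amount. A probe counted as detected when the scanner software marked it well above background on all 5 arrays.

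Sequences of some of the brightest probes come first, because the ranking turns on them. Of the 25 brightest genes with an ordinary gene symbol, 7 were read by a probe that holds a tandem run, a short unit of 1 to 4 bases repeated over at least 18 bases, and 6 of the 7 are shown. Each line shows 30 of the 60 bases of a probe, 5′ to 3′, from the array's annotation, with the run in capitals as far as it falls in the window. The positions are those of the whole probe on mouse build mm9, chrX:41719459-41719518 (minus strand) for Dcaf12l2, chr7:13993821-13993880 (plus) for Cabp5, chr2:130459323-130459382 (minus) for Lzts3, chr2:125453931-125453990 (minus) for Shc4, chr2:168641733-168641792 (minus) for Vash1 and chr2:31733377-31733436 (minus) for Cplx2. Whether they fall in exons or introns was not analysed here.
Dcaf12l2: GAGAGAGAGAGAGAGAGAGAGAGAtttcta
Cabp5: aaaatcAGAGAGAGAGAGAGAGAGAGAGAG
Lzts3: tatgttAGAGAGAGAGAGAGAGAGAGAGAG
Shc4: ctacagGAGAGAGAGAGAGAGAGAGAGAGA
Vash1: AGGAGGAGGAGGAGGAGGAGGAGGaagggg
Cplx2: AGGAGGAGGAGGAGGAGGAGGAGGagaaga
In the whole probe the run spans 24 bases for Dcaf12l2, 28 for Cabp5, 26 for Lzts3 and for Shc4, 51 for Vash1 and 42 for Cplx2.

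A further set of bright probes shares a stretch of sequence with probes of unrelated genes. In the lines below the capitals mark the bases that the named probes have in common, 22 bases among F10, Kctd14 and Elk1 and the visible part of 39 bases between Exosc2 and Milr1. On mm9 these probes lie at chr8:13056119-13056178 (plus strand, F10), chr7:104606896-104606955 (plus, Kctd14), chrX:20510521-20510580 (minus, Elk1), chr2:31536706-31536765 (plus, Exosc2) and chr11:106628762-106628821 (plus, Milr1). What element, if any, the shared stretch belongs to was not determined here.
F10: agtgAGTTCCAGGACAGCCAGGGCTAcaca
Kctd14: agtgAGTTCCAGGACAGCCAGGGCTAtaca
Elk1: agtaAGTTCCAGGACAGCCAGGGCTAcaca
Exosc2: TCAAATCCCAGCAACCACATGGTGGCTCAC
Milr1: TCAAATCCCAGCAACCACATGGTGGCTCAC

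The PBS-treated vesicles held signal for a broad set of genes. Of the 55681 probes, 13053 (23.4%) were detected on all 5 arrays, and 31884 on none. These probes stood for 10742 of 36315 gene names on the array, and for 7973 of 19723 ordinary symbols (40.4%). Per array, 18018, 19041, 16492, 17062 and 19233 probes were well above background on replicates 1 to 5. Replicate 3 had the fewest and replicate 5 the most, and no probe was saturated on any array. For 7154 of the 10742 genes, the probe that gives the level was also well above background on each of the 4 control arrays. The same held for 98 of the 100 brightest. The genes were chosen by detection on the PBS-treated arrays, and their other probes were not checked, so these counts do not compare the groups.

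Levels of the detected genes ran from -5.10 to 7.83 with a median of -1.61, and the middle 50% lay between -2.95 and 0.10. Signal was concentrated in few genes. The 100 brightest names held 27.2% of the summed linear signal of the detected genes, and the 1000 brightest held 78.3%.

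The labelled cell type was checked against marker genes. Of 20 fibroblast markers, 13 were detected, and 5 of them were among the brightest 10% of detected ordinary genes. Of all ordinary genes on the array, 40.4% were detected and 4.04% were in that brightest 10%. S100a4, a calcium-binding protein of motile mesenchymal cells, was at 4.69, 4.67, 4.70, 4.49 and 4.58 on replicates 1 to 5. The matrix glycoprotein gene Sparc had a level of 3.59, the intermediate filament gene Vim 3.32 and the proteoglycan gene Dcn 3.29. Each of these 4 lay far above the median of all detected genes. The surface markers Thy1 (-6.59) and Fap (-7.32) stayed at background on each array, and neither Postn, Acta2, Lum, Tagln nor P4ha1 was so on all 5.

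Markers of other cell types were mostly not detected, and in each list the share detected was below the 40.4% of all ordinary genes. None of 8 epithelial, 6 hepatocyte or 4 erythroid markers was detected, and 1 of 8 endothelial markers was, the receptor gene Kdr at -2.42. Of 10 leukocyte markers, 3 were detected, namely Itgam at 0.82, Fcer1g at -2.72 and Cd3e at -3.16. Ptprc, which encodes the pan-leukocyte protein CD45, was at -6.33 and not detected. The pluripotency factor gene Nanog was detected at -1.94 while Pou5f1, at -6.67, was not on any array. Of 8 neuronal and glial markers 2 were detected, the brighter being Snap25 at 0.10, and Myh6 (-4.25) was the detected 1 of 6 muscle markers. The bright probes of Itgam and Snap25 hold CA runs, and the other 2 Itgam probes, at -5.45 and -6.59, were not detected. Over arrays, the median level of the fibroblast markers ranged from -2.88 to -2.24, and that of each other marker list stayed between -8.35 and -4.40.

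Among ordinary genes whose probe holds no run, iron storage and metal-binding genes led the ranking. Fth1, the heavy chain of ferritin, the iron storage protein, was the brightest gene at 7.83 ± 0.37 (SD, n = 5), with 7.93, 7.47, 7.44, 8.04 and 8.28 on replicates 1 to 5. Both arrays of slide 2 lay above the 3 arrays of slide 1, a difference of 0.54 that did not pass (limma adjusted p = 0.124). The metallothionein genes Mt2 and Mt1, small cysteine-rich proteins that bind zinc and copper, followed at 7.58 ± 0.25 and 6.89 ± 0.17 (SD, n = 5). Mt2 was at 7.63, 7.22, 7.44, 7.83 and 7.78, so its arrays overlapped with those of Fth1. Their probes lie on mm9 at chr19:10059485-10059544 for Fth1, chr8:96697371-96697430 for Mt2 and chr8:96704165-96704224 for Mt1. None of these 3 genes has a further probe to compare.

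Saa3 encodes a serum amyloid of the acute phase and was the next ordinary gene whose probe holds no run, at 6.79 ± 0.14 (SD, n = 5; probe chr7:53970389-53970448). Its values were 6.72, 6.70, 6.65, 6.92 and 6.95, with both slide 2 arrays above the 3 of slide 1 (difference 0.24, limma adjusted p = 0.15). Ppia, a prolyl isomerase, was at 6.68, Gapdh, a glycolytic enzyme, at 6.34 and Tpt1, a translation-associated growth protein, at 6.25. Gapdh was the steadiest of these, at 6.39, 6.25, 6.25, 6.43 and 6.38. Its 7 probes, all detected, ranged from 6.34 to 0.95, which shows how far probes of the same gene name can differ. The probe at 4.95 is annotated on chromosome 8 and the others on chromosome 6. There the probes at 6.34, 5.50 and 5.17 lie within 125111848-125111937, and those at 2.88, 2.29 and 0.95 within 125112979-125113371.

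**Figure D1:**
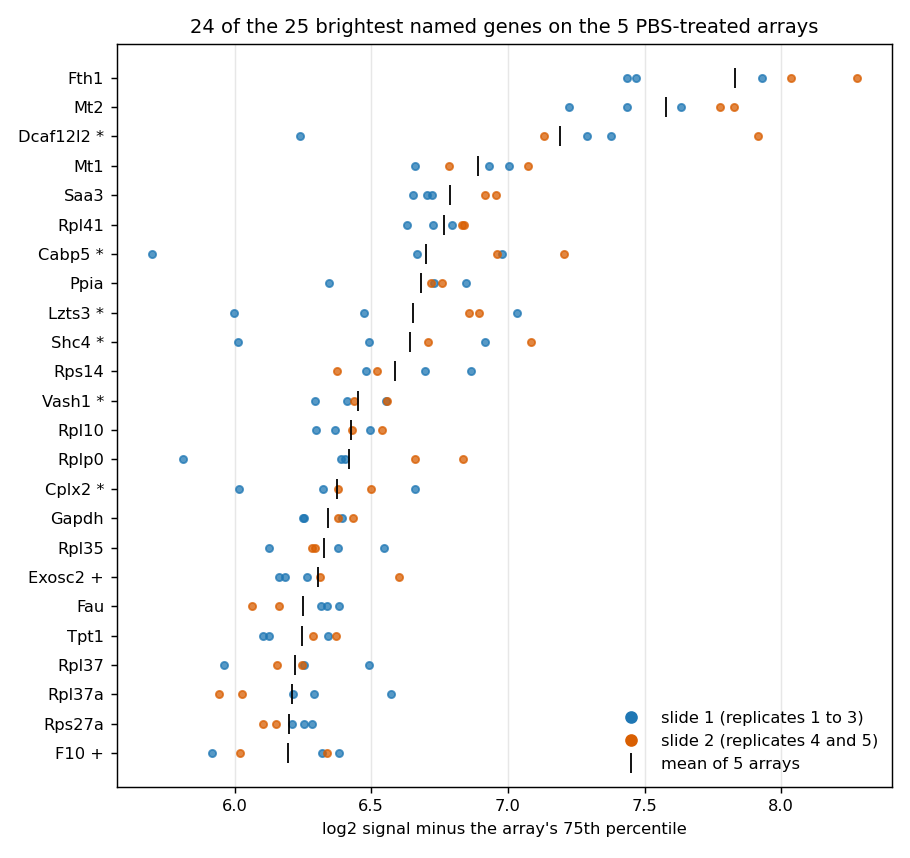
Level on each array (horizontal axis, log2 signal minus the array's 75th percentile) of 24 of the 25 brightest genes with an ordinary symbol (vertical axis), with blue points for slide 1, orange points for slide 2 and a bar at the mean of 5 arrays. An asterisk marks a probe with a tandem run of 18 bases or more and a plus sign a probe that shares a stretch with unrelated genes. Fth1 and Mt2 lead at means of 7.83 and 7.58, and replicate values spread more for Dcaf12l2 and Cabp5 (SD 0.61 and 0.59) than for Gapdh (SD 0.08).

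Ribosomal protein genes made up the largest block at the top. They were 41 of the 100 brightest ordinary genes, against 8 histone genes, 9 genes read by a run probe and 1 gene of the mitochondrial genome. Among the 25 brightest were Rpl41 (6.76), Rps14 (6.59), Rpl10 (6.43), Rplp0 (6.42), Rpl35 (6.33), Fau (6.25), Rpl37 (6.22), Rpl37a (6.21) and Rps27a (6.20), parts of the large and small ribosomal subunits. Rpl41 was at 6.80, 6.63, 6.73, 6.84 and 6.83. Rplp0 varied more, at 6.40, 6.39, 5.81, 6.66 and 6.84, with replicate 3 the lowest.

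Ribosomal RNA was bright as well. Rn18s, the 18S ribosomal RNA, was at 7.15, 6.09, 7.16, 7.34 and 7.37 (mean 7.02), lower on replicate 2 than on the other arrays. Rn28s1, the 28S ribosomal RNA, was at 5.62 ± 0.23 (SD, n = 5). Both names were looked up after their values were seen. Rn18s falls outside the rule for ordinary symbols, whereas Rn28s1 is within it, at rank 57 among ordinary symbols. The study's methods name the QuickAmp labelling kit, which primes from poly(A) tails, and neither RNA carries such a tail in its mature form. What their probes read was not tested.

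Some run probes at the top carry the names of neuronal genes. Cabp5, a calcium-binding protein of retinal neurons, was at 6.70 ± 0.59 (SD, n = 5), and Cplx2, a complexin of synaptic vesicle fusion, at 6.37 ± 0.24. The others shown above were Dcaf12l2 at 7.19, Lzts3 at 6.65, Shc4, an adaptor protein of growth factor receptors, at 6.64, and Vash1, a vasohibin that modifies tubulin, at 6.45.

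The other probes of these genes gave both low and high values. The other probe of Cabp5 was at -7.67 and not well above background on any array. The other probe of Shc4 was at -5.48 and that of Dcaf12l2 at -5.05, both not detected. Vash1 had a further run probe at 6.37 and a probe without a run at -4.44, and Cplx2 had probes at 5.77, 5.52 and -2.18, of which the one at 5.52 holds a run of 18 bases. Both run probes of Vash1 are annotated on chromosome 2 and its dim probe on chromosome 12. The Cplx2 probe shown above is annotated on chromosome 2 and its other 3 probes, bright and dim, on chromosome 13.

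Bright values with a dim partner also occurred among the shared-stretch probes. F10, coagulation factor X, was at 6.20 with its other probe at -7.67. Kctd14 was at 5.88 with others at -6.49 and -7.31, and the transcription factor gene Elk1 was at 5.76 with its other probe at -6.36. None of these 4 other probes was detected. Milr1, a mast cell receptor, had probes at 5.86, 0.95 and -2.74, all detected, and Exosc2, an RNA exosome subunit at 6.31, had no further probe. St6galnac1, a sialyltransferase whose bright probe (5.70) holds a run of 16 bases, had its other probe at -7.53.

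**Figure D2:**
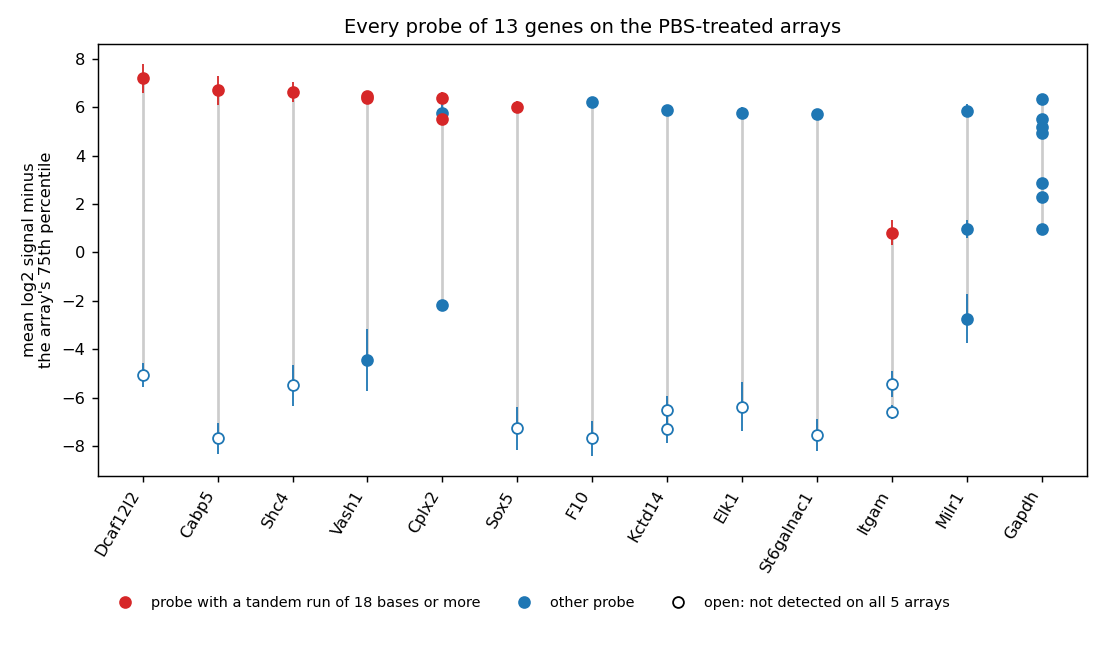
Mean level over the 5 arrays (vertical axis, log2 signal minus the array's 75th percentile; bars are the SD) of every probe of 13 genes (horizontal axis), red for probes with a tandem run of 18 bases or more, blue for other probes, open where the probe was not detected on all 5 arrays. In Cabp5, Sox5, F10 and Kctd14 a probe near 6 or 7 stands over a probe at or below -6.49, while the 7 probes of Gapdh are all detected and lie between 0.95 and 6.34.

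Over the whole array, probes with a tandem run were detected more often. Of 224 such probes 190 were detected (84.8%), against 12863 of 55457 without a run (23.2%). Since many run probes share their sequence, they are not separate readings, and these shares are descriptions. The level differed with the strand of the run. The 7 probes whose run repeats GA were all detected at a median of 6.65, while 5 of the 8 with its complement, TC, were, and those 8 had a median of -3.96. All 13 GGA probes were detected with a median of 6.10, and the lone TCC probe was at -3.39. The 44 GAA probes had a median of 3.57, and no probe on the array held a TTC run. For TG and its complement CA the strands were closer, with medians of 1.11 over 63 probes and 0.48 over 27, all detected.

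Purine-rich probes overlapped with the run probes. Of 70 probes with 51 to 60 purines among their 60 bases, 59 (84.3%) were detected, at a median over the 70 of 3.39, and 37 of the 70 hold a run. Of the 33 without a run, 22 (66.7%) were detected, and their median was -0.20. Among probes without a run the share detected was 20.1% of 1315 with 41 to 50 purines and 23.2% of 53210 with 20 to 40. Of the 5 such probes with fewer than 10 purines 1 was detected. Which RNA gave the signal at purine-rich probes was not tested.

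In all, 103 ordinary genes owed their level to a run probe, and 183 gene names did when unnamed loci are counted. Of the 103, 69 had another probe without a run, and for 54 of these no such probe was detected. Among the 100 brightest ordinary genes, the gap from the brightest probe to the next had a median of 12.7 in the 8 run genes with another probe, and of 2.08 in 51 genes without a run. Of those 51, 17 had a gap of over 4. The levels of genes with a single probe have no such check.

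Of the 100 brightest names of any kind, 47 were not ordinary symbols, being mostly predicted genes, transcript accessions or named pseudogenes. Rn18s is counted among them, 8 of the 47 hold a run, and 12 of the 39 without one share at least 20 bases with the probe of a named gene. Gm10293, at 6.66, shares 30 bases with a Gapdh probe, and Gm5921, at 6.78, shares a stretch with the ribosomal protein gene Rps2. Signal of such probes cannot be told apart from that of the named gene or its copies.

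Functional classes were described with 26 gene lists. For comparison, 40.4% of ordinary genes on the array were detected and 4.04% were among the brightest 10% of those detected, and detected genes had a median level of -1.61. Counts are given of members on the array, and each class median is over detected members, which lifts it where many were not detected. In 22 of the 26 lists this median was above that of all detected genes. No list was tested against other genes.

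Ribosomal protein genes had the highest medians of the 26 lists. All 49 large-subunit ribosomal protein genes on the array were detected, 46 among the brightest 10%, with a median of 4.97. All 32 small-subunit genes were detected, 30 among the brightest 10%, with a median of 4.73. The lowest members were Rpl21 (-2.77) and Rps21 (-1.67). Class medians moved little between arrays, from 4.92 to 5.26 for the large and from 4.71 to 4.84 for the small subunit. Of 40 genes on the initiation and elongation factor list, 39 were detected with a median of 1.15. Tpt1, a translation-associated protein listed with them, was brightest at 6.25. Next came Eif3h, a subunit of initiation factor 3 (4.12), and Eef1d, an elongation factor subunit (3.72). Eif5b, a factor of subunit joining, was at -7.66 and not detected.

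Energy metabolism came next. Of 20 glycolysis genes 18 were detected, 10 in the brightest 10%, with a median of 3.35. After Gapdh came the lactate dehydrogenase gene Ldha (5.96 ± 0.06, SD, n = 5) and the aldolase gene Aldoa (5.44, 5.50, 5.94, 5.14 and 5.26). Ldha differed by little between arrays, whereas Aldoa was higher on replicate 3. The lower members were the glucose phosphorylating enzyme gene Hk2 (-3.13) and Pfkp (-4.21), and Slc16a3, a lactate exporter, was not detected on all 5 arrays.

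All 12 mitochondrially encoded messages on the array were detected, 9 in the brightest 10%, with a median of 3.08. COX2, a cytochrome c oxidase subunit, was at 5.58 ± 0.12 (SD, n = 5), COX3 at 4.13 ± 0.49 and COX1 at 4.11 ± 0.65. ND6, a complex I subunit encoded on the opposite strand from the rest, was lowest at -1.01. The 77 nuclear-encoded oxidative phosphorylation genes were also all detected, 52 in the brightest 10%, with a median of 2.18 and a range of -1.95 to 4.54. Its brightest members were the ATP synthase genes Atp5g2 (4.54) and Atp5e (4.26) and the complex I gene Ndufa13 (4.30).

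Histone and cell cycle genes were present. Of 34 replication-dependent histone genes, whose messages in their usual form lack a poly(A) tail, 26 were detected, 12 in the brightest 10%. The H2A genes H2ac12 (6.05 ± 0.07), H2ac11 (5.82 ± 0.25) and H2ac10 (5.77 ± 0.14; SD, n = 5) led. Their probes share 20 or more bases with each other and with further H2A genes, so signal cannot be assigned to a single copy. The highest H4 member was H4c12 at 4.09, and H1f3, a linker histone, was at -7.33 and not detected. Of 38 S-phase and mitosis genes 34 were detected with a median of -0.05, led by the survivin gene Birc5 (2.66), Hmgb2 (2.48) and the replication helicase gene Mcm6 (2.03).

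**Figure D3:**
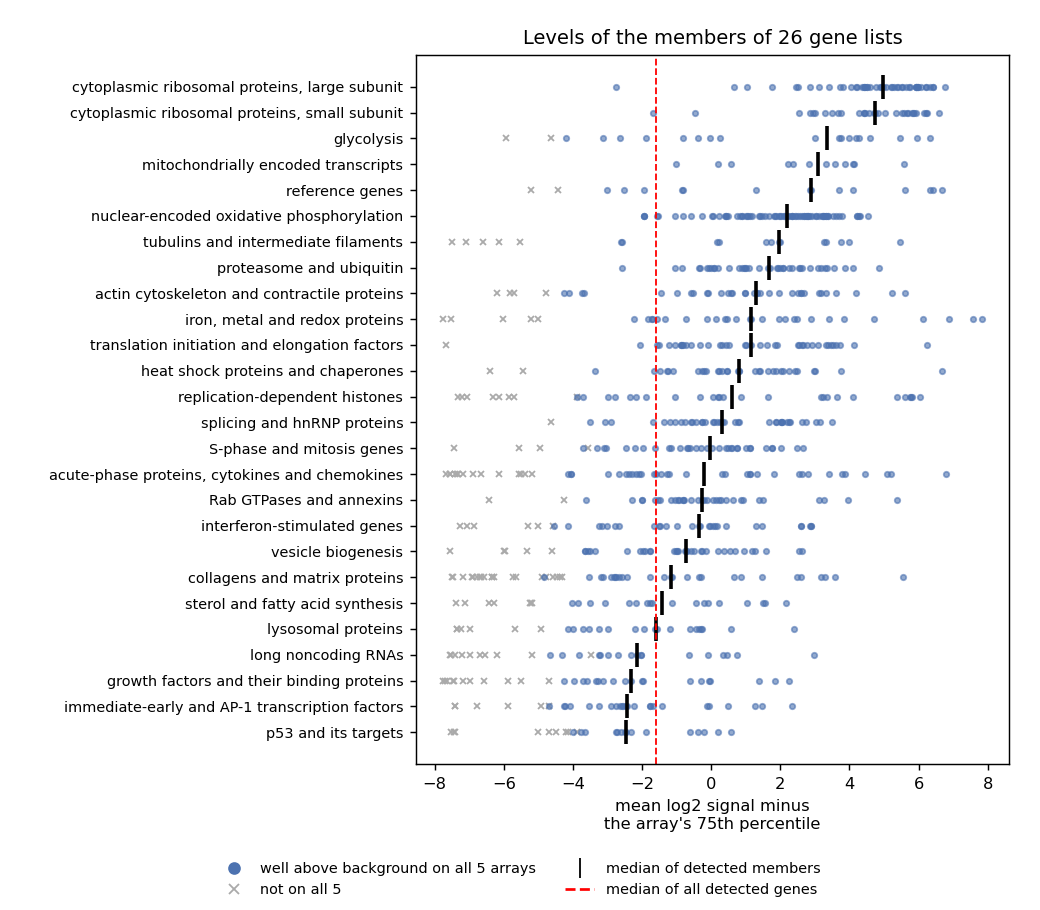
Mean level over the 5 arrays (horizontal axis, log2 signal minus the array's 75th percentile) of the members of 26 gene lists (vertical axis, ordered by median), with blue points for members detected on all 5 arrays, grey crosses for those not, black bars for the median of detected members and a red dashed line at the median of all detected genes, -1.61. The 2 ribosomal lists lie at the top at 4.97 and 4.73 with no grey cross, and p53 and its targets lie lowest at -2.47.

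Structural genes of the fibroblast varied widely. Of 38 actin cytoskeleton genes 34 were detected, 15 in the brightest 10%, with Actb at 5.60, Actg1 at 5.22 and the myosin light chain gene Myl6 at 4.18. The smooth muscle members were low. Myl9 was at -4.25, and Acta2 (-6.20), Actg2 and Cnn1 were not detected. Of 18 tubulin and intermediate filament genes 13 were detected, led by Tuba1b (5.45), while Des and the keratins Krt8 and Krt18 were not.

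Matrix genes were less complete, with 27 of 47 detected and a median over all 47 of -3.14. The brightest were Lgals1, a secreted galectin (5.54), Sparc and Dcn. Lgals1 was at 5.44, 5.41, 6.04, 5.38 and 5.41, with replicate 3 above the other arrays. The fibrillar collagen genes were modest, Col1a1 at -0.30 ± 0.32, Col1a2 at -1.35 ± 0.18 and Col3a1 at -2.75 ± 0.33 (SD, n = 5). The fibronectin gene Fn1 was detected at 1.47, and the laminin genes Lamc1 and Lamb1 at -3.14 and -3.18. Fbn1, Tnc, Eln and Col4a1 were among the 20 matrix genes not detected on all 5 arrays.

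Most genes of vesicle formation were detected, at a median above the -1.61 of all detected genes. Of 38 tetraspanin, ESCRT and syntenin route genes 33 were detected and 3 were in the brightest 10%, with a median of -0.72. Cd63, an endosomal tetraspanin widely used to identify EVs, was at 2.70, 2.70, 2.75, 2.62 and 2.31. The tetraspanin gene Cd81 was steady at 0.24, 0.28, 0.09, 0.19 and 0.18. Cd9 was at -0.09, -0.21, -1.45, -0.46 and -0.66, with replicate 3 the lowest. Of the ESCRT genes, Vps28 was at 2.55, Snf8 at 1.60 and Tsg101 at -3.35. Of the 2 genes of the ATPase that disassembles ESCRT filaments, Vps4b was detected at -0.76 and Vps4a, at -7.56, was not detected. Pdcd6ip, which encodes ALIX, was at -0.96 and the syntenin gene Sdcbp at -0.72. The array reads RNA, so these levels say nothing of the proteins on the vesicles.

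Of 35 Rab GTPase and annexin genes 33 were detected. The annexins, calcium-dependent membrane-binding proteins, were its brightest, with Anxa2 at 5.38, Anxa6 at 3.95 and Anxa1 at 3.27. Among the Rab genes, Rab27b was the dimmest detected member at -3.63, and Rab27a (-6.42) and Rab21 (-4.27) were not detected. All other Rab genes on the list were brighter, with Rab35 at 0.23, Rab7 at -0.80 and Rab11a at -0.82. Of 24 lysosomal genes 18 were detected, led by the membrane glycoprotein gene Lamp1 (2.40) and the protease genes Ctsl (0.59) and Ctsb (-0.26), with a class median of -1.60, near that of all detected genes.

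Inflammatory genes covered a wide range of levels. Of 48 acute-phase, cytokine and chemokine genes 34 were detected and 11 were in the brightest 10%. After Saa3 came Hp, the haptoglobin gene, at 5.18, 5.18, 5.48, 5.05 and 5.17, and Lcn2, a protein that binds bacterial iron carriers, at 4.94, 4.95, 5.01, 5.31 and 5.23. The chemokine genes Ccl5 (4.46), Cxcl5 (3.78), Cxcl1 (3.41) and Ccl2 (2.79) were in the same range as the acute-phase transcription factor gene Cebpd (3.87). Replicate 3 was the lowest array for Cebpd, at 3.07, and for Cxcl1, at 2.96. Mmp3 (2.64), Cebpb (2.55) and Nfkbia (1.82) were also in the brightest 10%. The 23 detected members outside the brightest 10% lay between 1.32 (Ccl7) and -4.13 (Cfb). Among them was Il6, a cytokine that drives the acute-phase response, at -1.22. Tnf (-7.33), Il1b (-7.17), Il1a (-7.56) and the chemokine gene Cxcl2 (-7.34) were at background on each array.

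Of 34 interferon-stimulated genes 28 were detected with a median of -0.35. The antigen presentation gene B2m was at 2.89, Ifi27 at 2.88 and the viral entry inhibitor gene Ifitm3 at 2.86, while the antiviral gene Rsad2 (-7.06) was not detected. In the iron, metal and redox list 27 of 32 were detected, 13 of them in the brightest 10%. Below ferritin and the metallothioneins came Ftl1, the ferritin light chain, at 6.14 and the mitochondrial superoxide dismutase gene Sod2 at 4.70, whereas the cystine transporter gene Slc7a11 was at -7.75 and the transferrin receptor gene Tfrc was not detected on all 5 arrays.

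Protein quality control genes were nearly complete. All 40 proteasome and ubiquitin genes were detected, 22 in the brightest 10%, with Ubb at 4.84 and the catalytic subunit gene Psmb5 at 3.87. Of 35 heat shock and chaperone genes 33 were detected, with Hsp90ab1 at 3.75 and Hspa8 at 3.00 after Ppia. The 2 that were not were Hspa1a (-5.46) and Hspb1 (-6.39). Of 40 splicing and hnRNP genes 39 were detected, led by Snrpg (3.50), Hnrnpa3 (3.16) and Ybx1 (3.03), a protein that binds messenger and small RNAs.

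By the median of detected members, the p53 and immediate-early lists were the dimmest. Over all members on the array the growth factor list was lowest at -3.46, with the p53 list at -3.20 and the immediate-early list at -2.62. Of 30 immediate-early genes 24 were detected with a median of -2.45, and the brightest were the growth inhibitor gene Btg1 (2.35) and the AP-1 genes Jun (1.48) and Jund (1.27). Fos was at -5.88 and not detected. Of 24 p53 list genes 15 were detected, none in the brightest 10%, with a median of -2.47. Bax, which permeabilises mitochondria, was at 0.58, Aen at 0.19 and Phlda3 at -0.22. Trp53 itself was at -3.85, -3.62, -3.43, -4.07 and -3.93, far below the median of all detected genes, and Cdkn1a was at -3.99.

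Of 25 sterol and fatty acid synthesis genes 18 were detected. Acly, which makes cytosolic acetyl-CoA, was at 2.16, Fdps at 1.55 and Hmgcs1 at 1.50. Of 30 growth factor genes 19 were detected, with the BMP inhibitor gene Grem1 at 2.25, Fgf7 at 1.85 and Fstl1 at 1.38. Igf2, Hgf, Igfbp3 and Igfbp5 were at background on each array.

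Of 27 long noncoding RNAs 17 were detected with a median of -2.16. The brightest were Rmrp (2.97 ± 0.06) and Rpph1 (0.75 ± 0.36; SD, n = 5), the RNA parts of RNase MRP and RNase P, and Zfas1 (0.45). Malat1, a nuclear RNA, was at -8.07, -7.83, -7.12, -6.69 and -7.31 and not well above background on any array. The nuclear paraspeckle RNA Neat1 was detected at -2.02, and H19 was not on all 5. Of 16 commonly used reference genes 14 were detected, with levels from -3.00 (Tbp) to 6.68 (Ppia).

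Replicates lay close together for most genes. The SD over 5 arrays had a median of 0.223, and 90% of genes were at or below 0.724, while 684 (6.37%) exceeded 1. Over these 10742 genes the median SD was 0.156 among the 3 arrays of slide 1 and 0.0905 between the 2 of slide 2. Across genes, which are not independent replicates, levels correlated at r = 0.996 between replicates 1 and 2, 0.978 and 0.979 between these and replicate 3, and 0.989 between replicates 4 and 5. Between slides r was 0.923 to 0.946. Spots of the same probe, of which 185 had several, differed with a median SD of 0.251 on replicate 3 and of 0.0905 to 0.168 on the other 4. Replicate 3 also stood apart from the other 4 arrays for the most genes. By Dixon's gap criterion for 5 values, which chance alone passes in about 1 of 20 genes, 897 genes (8.35%) had an array that stood apart, and for 646 of them it was replicate 3.

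Aff1, a component of a transcription elongation complex, had the largest SD, 4.12. It was at 7.79 on replicate 1 and at -1.62, -1.36, -1.47 and -1.26 on replicates 2 to 5. A single spot carried it, and its other probe, at -7.20, was not detected. The next largest gap from the highest array to the second was 3.79, in Cdhr2, named after its value was seen.

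The other 9 of the 10 ordinary symbols with the largest SD were brighter on slide 2, and 8 of them passed the test for slide described below, Opn4 being the exception (limma adjusted p = 0.0695). S1pr3, a receptor for sphingosine-1-phosphate, was at -4.72, -4.67 and -5.18 on slide 1 and at 0.29 and 0.13 on slide 2 (probe chr13:51517079-51517138). Opn4, the retinal photopigment melanopsin, was at -1.09, -0.49, -4.22, 2.09 and 2.37, and Sytl3, a Rab27-binding membrane traffic protein, at -1.50, -1.89, -4.26, 2.42 and 2.39. In these 3 genes both slide 2 arrays lay above all 3 arrays of slide 1. The remaining 6, Vmn1r87, Mrgprf, Olfr122, Atp9a, Krt80 and Elane, had SDs of 2.29 to 2.46. The other 2 probes of Sytl3, at -7.08 and -7.14, were not detected on any array.

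**Figure D4:**
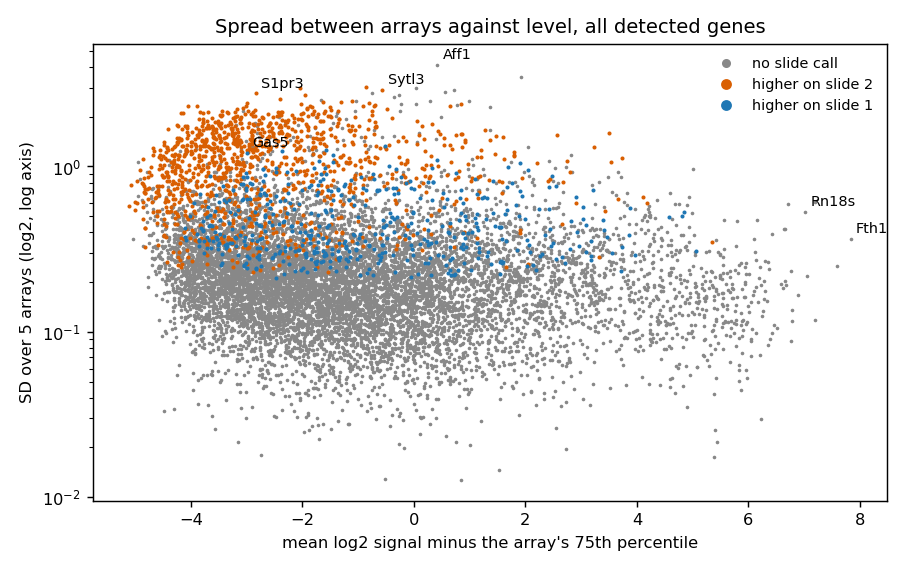
SD over the 5 arrays (vertical axis, log2 units on a log axis) against mean level (horizontal axis, log2 signal minus the array's 75th percentile) of the 10742 detected genes, coloured by whether limma called a slide difference. Genes higher on slide 2 (orange) gather at low levels with SDs above the median of 0.223, and Aff1 lies highest at 4.12.

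A limma fit across the 10742 detected genes compared the slides. It called 1622 genes (15.1%) at an adjusted p under 0.05, of which 1139 (10.6%) were higher on slide 2 and 483 (4.5%) higher on slide 1. The count moved from 786 to 3417 when an array was left out, the highest without replicate 3 and the lowest without replicate 5. With the percentile taken over all noncontrol probes, which moves the median slide difference over all genes from -0.05 to -0.88 (log2), 9356 genes were called and 8542 of them were higher on slide 1, so the direction of small differences depends on the scaling. Which slide an array lay on cannot be told apart from any difference in culture, RNA extraction or labelling between the same replicates.

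Among ordinary symbols, S1pr3 was higher on slide 2 by 5.06 ± 0.19 (log2, SE, limma adjusted p = 0.000301), Sytl3 by 4.95 ± 0.84 (limma adjusted p = 0.0175) and Vmn1r87, a vomeronasal receptor, by 4.47 ± 0.21. Mrgprf and Olfr122 followed at 4.44 and 4.41. On slide 1, S1pr3 (-4.72, -4.67 and -5.18) and Olfr122 (-4.56, -4.56 and -5.16) lay close to the lowest levels of the detected set. The size of these differences depends on the processing. S1pr3 was higher by 3.31 with normexp, another background correction, and 2.77 in the deposited value table, Olfr122 by 2.75 and 2.23, and both kept their call there. Mrgprf was higher by 2.96 in the value table. Sytl3 did not pass without replicate 4 or without replicate 5. On slide 1, Gas5, a growth-arrest RNA that hosts small nucleolar RNAs, was higher, with -1.93, -2.29 and -2.15 against -4.15 and -4.47, and slide 2 minus slide 1 was -2.18 ± 0.16 (log2, SE, limma adjusted p = 0.00109). It was -1.56 with normexp and -1.18 in the value table, called in both. Its other 2 probes were not detected. Hmcn2, Mrps14, Ndufa8 and Dpysl4 came next at -1.86, -1.56, -1.50 and -1.39, and each of these 4 lost the call without at least 1 array or, for Mrps14, with normexp and in the deposited value table.

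The share of genes called higher on slide 2 was larger among dim genes and among probes rich in G and C, although the band over 35 to 45% held the most calls, 767 of the 1622. Among the 1000 brightest detected names, 19 were higher on slide 2 and 40 on slide 1. Among the 1000 dimmest, 272 and 11 were. The 75th percentile was 263, 321 and 216 times the median negative-control signal on replicates 1 to 3. On replicates 4 and 5, of slide 2, it was 103 and 148 times that signal, so the background lay closer to the percentile there. The part of this in the calls among dim genes was not tested. Of 2457 genes read by probes with up to 35% G and C, 3.01% were higher on slide 2, against 8.67%, 18.9%, 56.7% and 58.3% in the bands over 35 to 45%, over 45 to 55%, over 55 to 65% and over 65%. The share higher on slide 1 ran the other way, from 6.92% in the lowest band through 4.45% and 2.24% to 1.49% and 1.67% in the highest 2. The median difference was -0.13 in the lowest band and 1.49 and 1.48 in the highest 2, which hold 134 and 120 genes. The part of base composition in the slide difference was not tested.

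**Figure D5:**
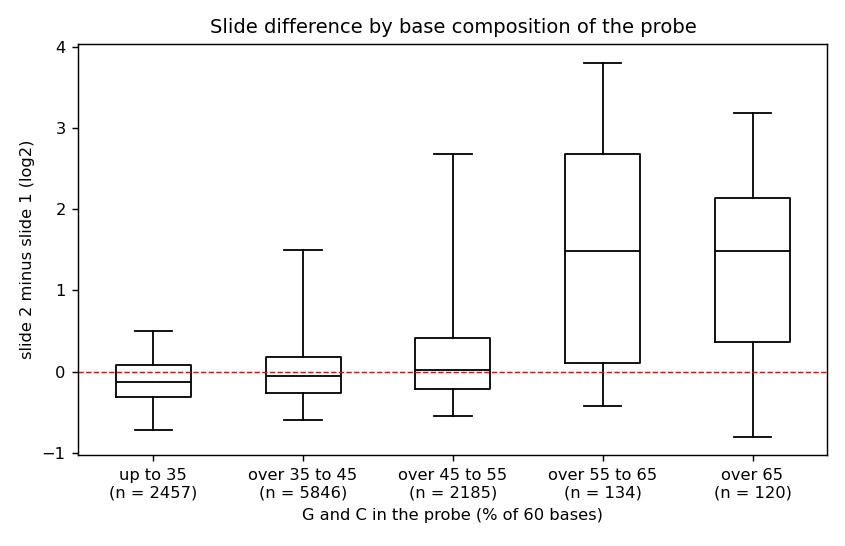
Difference in level between slide 2 and slide 1 (vertical axis, log2) of the detected genes in 5 bands of G and C content of the probe (horizontal axis), as boxes from the lower to the upper quartile with a line at the median and whiskers at the 5th and 95th percentiles. The medians lie near 0 up to 55% G and C and at 1.49 and 1.48 in the 2 bands above.

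Against 15.1% of all detected genes and 5.9% of the 1000 brightest, 1 of the 49 large-subunit ribosomal protein genes was called, Rpl31 (-0.56). With an array left out it was called only without replicate 3, and it was not called with normexp or in the value table. The median slide difference was -0.05 over the large-subunit, -0.09 over the small-subunit and -0.09 over the glycolysis genes, against -0.05 over all detected genes. Mitochondrially encoded COX1 was higher on slide 2 by 1.18, at 3.73, 3.59 and 3.57 against 4.79 and 4.84 (limma adjusted p = 0.0016), and ND1 by 0.74 (limma adjusted p = 0.0168). Neither call held with normexp (limma adjusted p = 0.0793 and 0.214) or in the value table (0.0869 and 0.202), and with the percentile over all noncontrol probes the differences were 0.36 and -0.09. Of 77 nuclear-encoded oxidative phosphorylation genes, 5 (6.49%), Ndufa8 among them, were higher on slide 1, against 4.5% of all detected genes. Larger differences stood in members of other lists. The matrix proteoglycan gene Bgn was higher on slide 2 by 2.85, the growth factor gene Igf1 by 2.35, the cell cycle kinase gene Cdk1 by 3.07 and the polymerase subunit gene Polr2a by 2.75 (limma adjusted p = 0.0011, 0.0005, 0.002 and 0.0007). Cdk1 was higher by 1.29 with normexp and 0.96 in the value table, and Polr2a by 1.63 and 1.33, all called. These list members were named after their values were seen. Vim was higher on slide 2 by 0.49 (limma adjusted p = 0.0412), a call lost with normexp, in the value table and without any array but replicate 3, and the difference was -0.33 with the percentile over all noncontrol probes.

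The detected set ended near a level of -5. The dimmest detected genes with an ordinary symbol were Wars2, a mitochondrial tryptophan tRNA ligase, at -5.10, the angiotensinogen gene Agt at -5.07, Tmem8b at -5.04, Sec14l2, a lipid-binding protein, at -5.00 and Efr3b at -4.96. Wars2 was at -5.79, -5.41, -5.28, -4.39 and -4.64. Agt was at -5.31, -5.76, -5.78, -4.24 and -4.26. In both, the 2 arrays of slide 2 lay above the 3 of slide 1, and 4 of these 5 genes were called higher on slide 2, Tmem8b being the exception (limma adjusted p = 0.2).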

How the data were processed

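RNA of MEF-derived EVs was measured on a 1-colour Agilent 8x60K mouse array, and 5 arrays labelled PBS treated were used, numbered as in the labels. Per the labels, total RNA was purified with a miRNeasy Serum/Plasma kit, 100 ng were reverse transcribed, and cyanine 3 labelled cRNA was made. Per the file headers the authors quantified the scans with Agilent Feature Extraction 10.7.3.1. No source used here gives the steps of their in-house pipeline. The deposited scanner files hold background-corrected spot intensity on a linear scale, with marks for non-uniform, saturated and well above background spots. A deposited value table holds the authors' log2 values, which ranked probes as the raw mean signal did on each array (Spearman 1.0, median 5.97). Its sorted values were the same on all 9 arrays to within 0.0021, as after quantile normalization. Its background treatment and centring are not stated, and it served as an alternative.

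Control spots and non-uniform spots (3 to 19 per array) were left out, spots of a probe were averaged, and log2 intensity was scaled to each array's 75th percentile over the 13053 detected probes, since these were fewer than 50% of all probes. The percentile was 790, 1153, 745, 593 and 631 intensity units on replicates 1 to 5, against median negative-control signals of 3.00, 3.60, 3.45, 5.74 and 4.27. Precision is limited by there being 5 arrays. A gene took its detected probe with the highest mean. Symbols are those of the array design, updated through RefSeq for 26413 matched probes. Coordinates are on mm9.

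Slides were compared with limma 3.58.1 in R 4.3.3 (lmFit and eBayes, two-sided, Benjamini-Hochberg adjusted p under 0.05), a fit first tested on simulated data. Tables were made with Python 3.11.15, pandas 2.3.3 and numpy 2.4.6. Named genes were the 25 brightest ordinary symbols and the 3 brightest detected members of each list, then, among ordinary symbols, the 10 largest SDs, the 5 largest called slide differences each way and the 5 dimmest detected genes, with Actb, Gapdh, Vim, Col1a1, Cd63, Cd9, Cd81, Trp53 and Malat1. A few genes that this rule takes are not reported here. Further list members were named after their values were seen. The members, lists and rules were chosen with earlier results of these data known. Alternatives were other scalings, normexp with quantile normalization, the value table, other detection marks, other probe rules, a robust prior, single slides and each replicate left out. Leaving out tandem-run or GC-rich probes was added after seeing the data.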

Additional observations from a re-analysis of the deposited data

Results flagged for a closer look

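The naming rule, with the genes added after seeing the data, took 123 detected genes. Of these, 10 had an array that stood apart from the other 4 by Dixon's criterion for 5 values, which chance passes in about 1 in 20 genes. Over all 10742 detected genes 897 (8.35%) did, a similar share. All values are levels (log2 signal minus the array's 75th percentile). Of the 10 genes, 5 stood apart on replicate 3. H2ac11 was at 6.26 there against 5.64 to 5.78 elsewhere, Lgals1 at 6.04 against 5.38 to 5.44, and Ctsb at -0.020 against -0.35 to -0.30. B2m was lower on replicate 3, at 2.44 against 2.93 to 3.08, and Jun was lower, at 0.64 against 1.51 to 1.78.

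On replicate 2, Ppia was at 6.35 against 6.72 to 6.85, and Rn18s at 6.09 against 7.15 to 7.37. Ubb was at 4.49 on replicate 5 against 4.86 to 5.01, and Snap25 at 0.47 on replicate 4 against -0.08 to 0.07. Aff1 was at 7.79 on replicate 1 against -1.62 to -1.26.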

How the results depend on the processing

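The set of brightest genes changed little. Of the 100 brightest names, 92 to 100 stayed among the 100 brightest under other scalings, the deposited value table, the median over arrays or either slide alone, 78 did with the mean over a gene's detected probes, 85 did without tandem-run probes (an alternative chosen after seeing the data) and 95 to 99 did with 1 array left out. The number of detected genes was 10742 and rose to 16569 with the scanner's mark for positive and significant signal. It was 10759 to 11521 with 1 array left out, 12361 and 13875 with detection on at least 4 or 3 arrays, and 10576 without tandem-run probes.

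The median SD of 0.223 became 0.542 with the percentile over all noncontrol probes and 0.0997 on slide 2 alone, and was 0.194 to 0.236 with 1 array left out. The lysosomal list's median minus that of all detected genes, 0.0086, turned to -0.0028 with normexp and -0.022 with the mean over probes. The other 25 lists kept their sign.

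The slide calls depended most on the processing. Of 1622 calls 70.2% were higher on slide 2. With the percentile over all noncontrol probes 9356 were called (8.7% higher on slide 2), with normexp 855 (75.1%), with the deposited values 730 (81.4%) and with detection on at least 3 arrays 3085 (62.7%). The median slide difference over all genes was -0.05, and -0.88, -0.21, -0.18 and -0.12 in these. With 1 array left out there were 786 to 3417 calls (57.3 to 90.3% higher on slide 2), among them 825 without replicate 4. Of the 1622, 718 remained called without replicate 4 and 1604 without replicate 3. Where slide 2 keeps 1 array, that array is assumed to vary like slide 1. The robust prior gave 1657 and leaving out probes over 55% G and C 1461. The causes were not tested. No paired analysis was possible because the arrays are of 1 group, so no replicate numbers pair samples across groups and no replicate block could be fitted.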
